A study of Mus musculus with 3 samples.

Results

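The genes described here encode the histones, the proteins around which nuclear DNA is wound. They comprise the replication-dependent genes of the Hist1 to Hist4 clusters and the variant genes whose symbols begin with H2af or H3f3. Of 79 such symbols in the deposited tables, 44 were measured, and these were chosen by level: the FPKM on a gene's named lines, summed over its transcripts, had to reach 1 in at least 1 of 3 libraries. FPKM, fragments per kilobase of transcript scaled to library size, can be set side by side between genes only where their RNA was captured alike. The 44 comprised 37 replication-dependent genes and 7 variant genes, out of 11208 genes at an FPKM of 1 or more in any library and 24402 gene symbols in all. The members nearest to the threshold on its inner side were Hist1h4d with a highest FPKM of 1.04, Hist1h2af with 1.16, Hist1h4b with 1.19 and Hist1h2ad with 1.32. Nearest on the outer side were Hist1h2ab with 0.996, Hist2h2be with 0.946, Hist1h2bh with 0.876 and Hist1h2bj with 0.827. The 35 symbols that did not pass held 11 H2B genes, 10 H3 genes, 5 H2A variants, 4 H2A genes, 3 H4 genes and 2 H1 genes.

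RNA came from spheroids of 4T1, a mouse mammary carcinoma line of the Balb c/J strain, grown without serum or attachment for 7 days, with EGF, FGF, heparin and SM1 supplement in all conditions, to enrich cancer stem cells (CSCsp). The 3 conditions were CSCsp with no co-culture (N), CSCsp after co-culture with tumor antigen primed splenocytes (P), and CSCsp after co-culture with such splenocytes whose activation had been reinforced with anti-CD3/CD28 beads and IL2 (R). The splenocytes were taken from female Balb/c mice, injected at 8 weeks of age, 28 days after they received 4T1 cells in the mammary fat pad, and a strainer separated them from the CSCsp before RNA extraction. Equal RNA of several experiments was multiplexed according to the study's methods. A single table per condition was used here, so there was no replicate and no difference was tested. All intervals below are exact 95% intervals for counting error only and leave out any spread between cultures. They may be too narrow even for counting error, since reads after PCR are not independent molecules.

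The libraries held about 17894139, 17887652 and 19178982 fragments for N, P and R. At an FPKM of 1, a transcript of 500 bases rested on 8.95, 8.94 and 9.59 fragments. The labels are open to doubt. The name of the table labelled N names saline, used to hold primed splenocytes, and that of the table labelled P the absence of treatment, and 43 listed markers of leukocytes were unevenly present, with 11 at an FPKM of 1 or more in N, 3 in P and 14 in R. The summed FPKM of these markers was 121, 69.3 and 121, and 8, 24 and 7 of them were at 0. N, P and R below stand for the libraries so labelled. Exchanging the labels N and P turns the direction of every P/N ratio, whereas a gene lowest in R stays so. Epithelial markers were high in all of them, with Epcam at 285, 242 and 245 FPKM.

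Most histone protein is made in S phase, when new DNA has to be packaged. The replication-dependent genes lie in clusters, lack introns, and give the only known animal mRNAs that normally end in a conserved stem-loop in place of a poly(A) tail. The stem-loop is bound by the protein encoded by Slbp, which directs the processing, translation and decay of the message. Variant genes lie outside the clusters, mostly have introns and poly(A) tails, and are mostly transcribed through the cell cycle, which lets their proteins replace histones in chromatin between rounds of replication. A core particle holds H2A, H2B, H3 and H4, while H1 binds the linker DNA between particles.

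The stem-loop sites are shown because they are a feature of the transcripts that the choice of members did not use. In GENCODE transcripts (release M21, GRCm38) the histone stem-loop consensus of 16 bases was found within 50 bases of the deposited transcript end in 27 of 37 replication-dependent members. It lay a median of 5 bases from that end. In 9 of the remaining members the annotation held no sequence at the deposited end, and in Hist1h2bc it held sequence without a match. Of all 141767 GENCODE transcripts, 111 (0.0783%) had a match. The sites of 6 genes discussed below are shown 5′ to 3′ on the coding strand, with the stem arms in capitals and the loop and flanks in lower case.
Hist1h1c: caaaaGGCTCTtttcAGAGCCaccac
Hist1h2bg: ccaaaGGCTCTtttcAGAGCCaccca
Hist2h2aa1: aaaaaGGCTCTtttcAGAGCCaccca
Hist1h2ap: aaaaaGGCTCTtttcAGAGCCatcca
Hist1h4i: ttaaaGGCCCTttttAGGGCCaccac
H2afx: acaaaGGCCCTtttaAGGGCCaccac

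They lie at chr13:23739512-23739527 for Hist1h1c and, in the variant gene H2afx, at chr9:44335240-44335255, both on the plus strand of GRCm38. The 16 bases seen in Hist1h1c were shared by 15 members: 3 H1, 9 H2A, 2 H2B and 1 H3 gene. None of the 9 H4 genes with a site had these 16 bases. H2afx, which encodes the variant phosphorylated at DNA breaks, had a site 818 bases upstream of its deposited end, so that the deposited transcript ran past it. In 5 other variants the annotated sequence held no match.

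The replication-dependent histone genes were lowest in the library R, whereas the variants were nearly level. The summed FPKM of the 37 replication-dependent members was 496 (483 to 509) in N, 317 (306 to 328) in P and 179 (171 to 187) in R. That of the 7 variants was 868 (858 to 879), 838 (828 to 849) and 791 (782 to 801). The replication-dependent sum in R was thus 0.360 times that in N (0.341 to 0.379) and 0.563 times that in P (0.532 to 0.596), while the variant sum in R was 0.911 times that in N and 0.944 times that in P. In bulk RNA, fewer cells that transcribe a gene and less RNA per cell cannot be told apart. Replication-dependent genes made up 36.4% of all measured histone FPKM in N, 27.5% in P and 18.4% in R. These shares depend on how RNA was selected, as described below.

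Single genes showed the same order. Of the 37 replication-dependent members 30 had their lowest FPKM in R, against 32.4% of all genes, and 28 were ordered N above P above R, against 13.0% of all genes. In R/N, 28 of 37 were at least 2-fold lower, against 2.15% of all genes, and 1 was at least 2-fold higher, against 3.27%. In P/N, 15 of 36 were at least 2-fold lower, against 1.85%, and 1 was at least 2-fold higher, against 0.772%. In R/P, 14 of 23 were at least 2-fold lower, against 1.95%, and 1 was at least 2-fold higher, against 4.33%. These ratios are log2(FPKM + 0.1) and were taken where either library reached an FPKM of 1. Median log2 ratios were -1.75 for R/N, -0.84 for P/N and -1.14 for R/P, where the medians of all genes were 0.08, 0.03 and 0.03. None of the 7 variants was 2-fold apart in any comparison.

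The threshold itself favours some of these differences, since 14 of the 37 members reached an FPKM of 1 only in the library N and 9 more only in N and P. A member that passed in N alone had to be lower elsewhere. Among the 11 members at an FPKM of 1 or more in both R and N, 10 were lower in R, 7 of them at least 2-fold, and their median log2 ratio was -1.10. Among all 10526 genes at that level in both libraries 39.3% were lower in R and 1.08% at least 2-fold lower. The counting intervals of the FPKM lay wholly lower in R than in N for 20 of the 37 and wholly higher for 2, Hist1h2ap and Hist2h2aa2. Both of these overlap another symbol, so their separate values are uncertain, as described below. The like share over all genes was not taken, and the 37 include the members that passed in N alone. The 35 symbols that missed the threshold summed to 13.8, 8.90 and 5.86 FPKM in N, P and R.

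**Figure D1:**
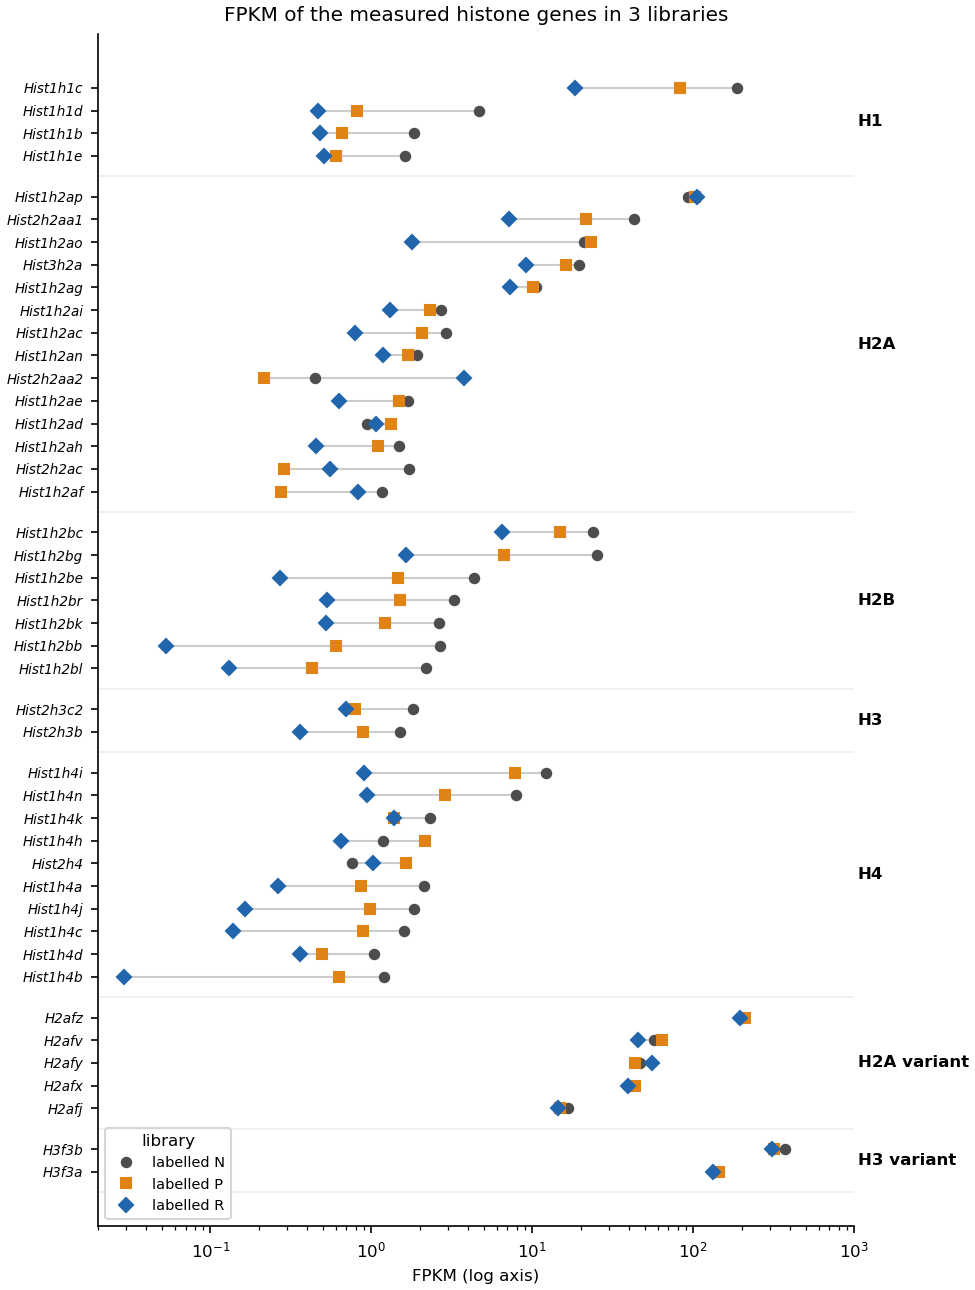
FPKM (log axis) of each of the 44 measured histone genes, grouped by type and ordered within a type by mean level, with 1 marker per library and a grey line over their range. Markers of H1, H2B and most H4 genes spread with R on the left, as for Hist1h1c at 187, 82.2 and 18.5, whereas those of the variants nearly coincide, as for H2afz at 199, 210 and 194.

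Of the replication-dependent types, H1 had the lowest ratio of summed FPKM in R/N, 0.103 (0.0904 to 0.116). The 4 measured H1 genes summed to 195 (187 to 203) in N, 84.2 (79.3 to 89.4) in P and 20.0 (17.7 to 22.5) in R, and all 4 were at least 2-fold lower in both P and R than in N. Of these, 3 reached an FPKM of 1 in N alone, so the threshold fixed that they were lower in P and R. One gene carried the sum. Hist1h1c, which RefSeq now lists as H1f2, stood at 187 FPKM in N (2422 fragments), 82.2 in P (1066 fragments) and 18.5 in R (258 fragments), and made up 95.8%, 97.5% and 92.8% of H1. The 3 values did not overlap in their intervals. From N to P Hist1h1c was lower by 2.27-fold (2.11 to 2.44), from P to R by 4.43-fold (3.86 to 5.10) and from N to R by 10.1-fold (8.85 to 11.5). It was the most abundant clustered histone gene in N, while Hist1h2ap stood higher in P and R.

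The other H1 genes were low. Hist1h1d stood at 4.67, 0.808 and 0.463 FPKM, which was 10.1-fold lower in R/N (4.63 to 26.1). Hist1h1b stood at 1.85, 0.656 and 0.479 FPKM, and Hist1h1e at 1.62, 0.602 and 0.505 FPKM. All of them were highest in N, which the threshold fixed, since each reached an FPKM of 1 in N alone. The difference between P and R was within counting error for each, the 3 summing to 2.07 in P and 1.45 in R (ratio 0.383 to 1.26). Without Hist1h1c the replication-dependent sum was 309, 235 and 160 FPKM, a ratio of R/N of 0.517 (0.487 to 0.550).

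The gene of another linker histone, H1f0, which is known to accumulate in cells that leave the cell cycle, lies outside the clusters and was not selected by the name patterns. It stood at 443, 456 and 290 FPKM, that is, level between N and P and lower in R, by less than 2-fold. H1fx was listed at 0 in all 3 libraries.

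H2B had the next lowest ratio of summed FPKM in R/N, 0.150 (0.125 to 0.180), and the lowest median log2 ratio, -3.31 against -2.42 for H1. That median was the value of Hist1h2bl, which rested on 1.075 fragments in R, so this rank of the medians is uncertain. Its 7 measured genes summed to 64.0 (59.5 to 68.7), 26.7 (24.0 to 29.6) and 9.61 (8.11 to 11.3) FPKM, and all 7 were ordered N above P above R. All 7 were at least 2-fold lower in R than in N and 6 of 7 in P than in N. The threshold favoured this order, since 7 reached an FPKM of 1 in N, 5 in P and 2 in R. Hist1h2bg stood at 25.2, 6.66 and 1.65 FPKM (209, 55.2 and 14.7 fragments), 15.3-fold lower in R/N (9.06 to 27.8) and 3.79-fold lower in P/N (2.80 to 5.20). Hist1h2bc stood at 23.7, 14.8 and 6.46 FPKM, only 3.66-fold lower in R/N (2.88 to 4.69). The intervals of these 2 genes' ratios did not overlap. Hist1h2br stood at 3.27, 1.5 and 0.526 FPKM, and Hist1h2be at 4.34, 1.46 and 0.271 FPKM. Hist1h2bb stood at 2.69, 0.599 and 0.0532 FPKM, the last of which corresponds to less than 1 fragment, so that no fold is given.

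Transcripts of Hist1h2bc and Hist1h2be are given singly, because each gene has a short form of 1 exon and a longer spliced form. The spliced form of Hist1h2bc, 2 exons over chr13:23684199-23692480, stood at 20.5, 14.3 and 6.41 FPKM, while the form of 1 exon, 469 bases long, stood at 3.21, 0.526 and 0.0471 FPKM (27.0, 4.41 and 0.423 fragments). The spliced form was 3.19-fold lower in R than in N, a ratio of 0.313 (0.246 to 0.402). The form of 1 exon was below 1 fragment in R, so that no fold is given.

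For Hist1h2be the form of 1 exon, 445 bases long, ended 5 bases past a histone stem-loop and stood at 4.21, 1.26 and 0.112 FPKM (33.5, 10 and 0.954 fragments). The spliced form of 2510 bases ended 1861 bases past the same stem-loop and stood at 0.126, 0.199 and 0.159 FPKM (5.65, 8.94 and 7.65 fragments). The first form was also below 1 fragment in R, and the ratio of R/N was 1.26 (0.379 to 4.35) for the second. Spliced forms were not level in general, since Hist1h2br, which has forms of 2 exons only, had a form of 2121 bases at 1.93, 0.873 and 0.287 FPKM and an assembled form of 3972 bases at 1.17, 0.374 and 0.103 FPKM. Their ratios of R/N were 0.149 (0.0758 to 0.284) and 0.0886 (0.0376 to 0.186), and that of a sparse form of 2399 bases was 0.785 (0.222 to 2.78). Forms of a gene share bases, and how reads were divided between them by the assembler was not tested.

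**Figure D2:**
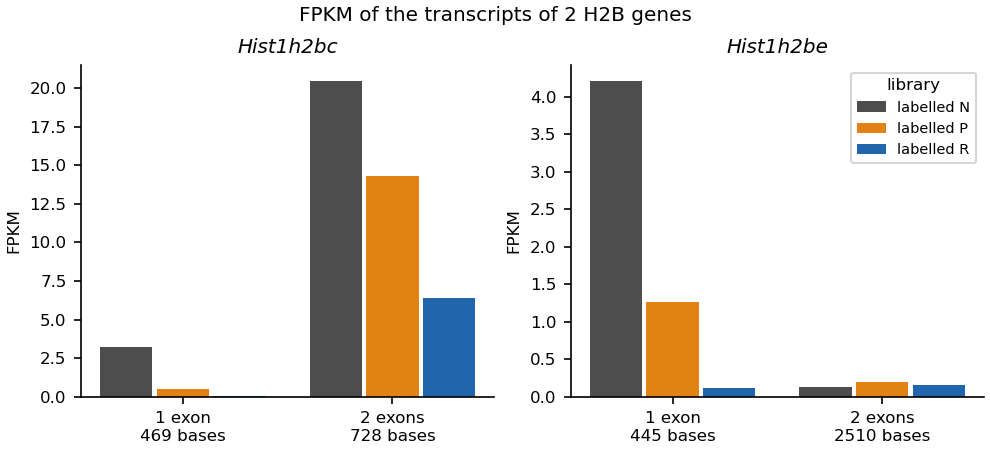
FPKM of the transcripts of Hist1h2bc (left) and Hist1h2be (right) in the libraries N, P and R, by number of exons and length; the bars start at 0 and a Hist1h2be transcript without reads is left out. The forms of 1 exon were 3.21 and 4.21 FPKM in N and 0.0471 and 0.112 in R, while the 2-exon form of Hist1h2be stood between 0.126 and 0.199 in all 3 libraries.

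H4 genes were lower in level, and 9 of them reached an FPKM of 1 in N, 5 in P and 2 in R. The 10 measured genes summed to 32.2 (28.1 to 36.7), 19.6 (16.5 to 23.2) and 5.85 (4.26 to 7.84) FPKM, and 7 of 10 were at least 2-fold lower in R than in N but only 2 of 10 in P than in N. Hist1h4i stood at 12.2, 7.76 and 0.904 FPKM (88.3, 55.9 and 6.98 fragments), 1.58-fold lower in P/N (1.12 to 2.25) and 13.5-fold lower in R/N (6.31 to 34.7). Most of its difference thus lay between P and R. Hist1h4n, with copies at 2 places, stood at 7.89, 2.85 and 0.937 FPKM. Hist1h4k stood at 2.31, 1.38 and 1.38 FPKM and Hist1h4h at 1.18, 2.15 and 0.646 FPKM, and the counting intervals of their R/N ratios included 1. Hist2h4, the member that was 2-fold higher in P than in N, stood at 0.758, 1.64 and 1.02 FPKM on 5.21, 11.2 and 7.54 fragments, and its ratio of 2.16 had an interval from 0.691 to 7.92.

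H3 had low FPKM among the clustered genes. Only Hist2h3b, at 1.5, 0.890 and 0.360 FPKM, and Hist2h3c2, at 1.81, 0.790 and 0.696 FPKM, passed the threshold. They summed to 3.31, 1.68 and 1.06 FPKM, with a ratio of R/N of 0.319 (0.151 to 0.632). Both reached an FPKM of 1 in N alone, so the threshold fixed that they were lower in P and R.

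H2A was the exception among the core histones. The 14 measured genes summed to 202 (193 to 211), 185 (176 to 194) and 142 (135 to 150) FPKM, which made H2A 40.7% of the replication-dependent sum in N and 79.6% in R. Of 14 genes, 8 were at least 2-fold lower in R than in N, 5 were within 2-fold and 1 was higher, and 2 of 13 were 2-fold lower in P than in N. Without H2A the replication-dependent sum was 294, 132 and 36.5 FPKM, 8.06-fold lower in R than in N.

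Much of the H2A sum came from 1 locus with near-identical copies, which held 56.4% of it in N, 68.4% in P and 76.0% in R. Hist1h2ap stood at 92.6, 103 and 106 FPKM (862, 954 and 1033 fragments), and it was the only replication-dependent member with an FPKM over 20 that was highest in R. Hist1h2ao, which shares its locus, stood at 21.0, 23.2 and 1.79 FPKM. The second transcript line of Hist1h2ap, over chr13:21810467-21810918, lies inside the Hist1h2ao transcript and stood at 29.8, 36.1 and 47.6 FPKM. Its other line, over chr13:21833024-21833575, stood at 62.8, 67.1 and 58.5 FPKM and was lowest in R. Summed over both symbols the locus stood at 114 (107 to 121), 126 (119 to 134) and 108 (102 to 115) FPKM, a ratio of R/N of 0.95 (0.872 to 1.04). The separate values of Hist1h2ao and Hist1h2ap, and the higher value of Hist1h2ap in R, are thus uncertain. Both have the same 16 bases of stem-loop, within 5 bases of the deposited ends, as Hist1h1c does.

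A like division of reads occurred in the Hist2 cluster. Hist2h2aa1, with copies in opposite directions, stood at 43.0, 21.6 and 7.16 FPKM, while Hist2h2aa2, which overlaps it, stood at 0.449, 0.215 and 3.78 FPKM. The latter was the member counted as higher in R. The symbols summed to 43.4 (39.5 to 47.6), 21.8 (19.0 to 24.8) and 10.9 (9.10 to 13.1) FPKM, with a ratio of R/N of 0.252 (0.205 to 0.309). This H2A locus was thus 3.97-fold lower in R/N, between the Hist1h2ap locus and the H2B sum, which was 6.66-fold lower. Hist3h2a lay between, at 19.6, 16.1 and 9.09 FPKM, 2.15-fold lower in R/N (1.66 to 2.81). The 10 H2A genes outside these 2 loci summed to 44.6, 36.7 and 23.1 FPKM, a ratio of R/N of 0.519 (0.437 to 0.614).

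**Figure D3:**
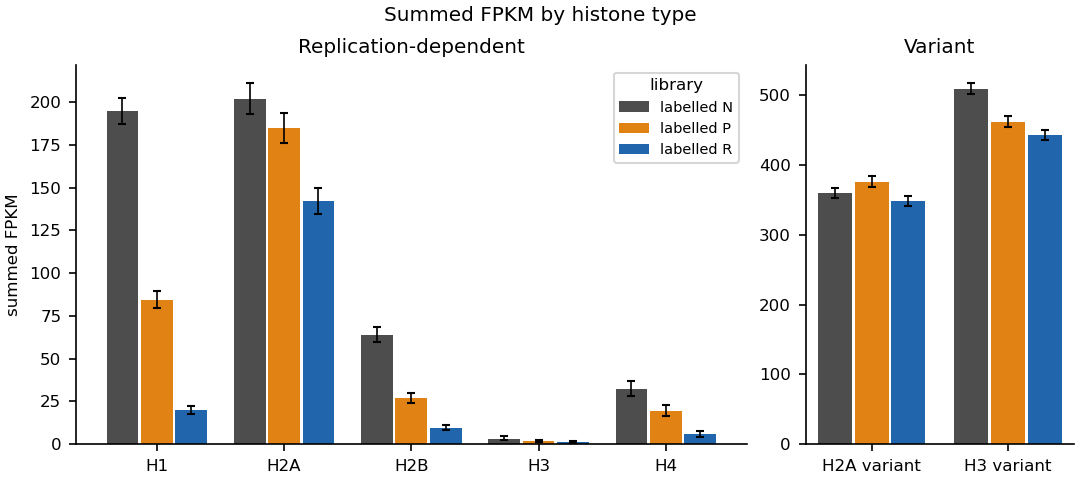
Summed FPKM of each histone type, replication-dependent on the left and variant on the right with axes of their own, in the libraries N, P and R; bars start at 0 and error bars are exact 95% Poisson intervals for counting error. H1 stands at 195, 84.2 and 20.0 and H2B at 64.0, 26.7 and 9.61, whereas H2A stands at 202, 185 and 142 and the H3 variants at 509, 462 and 443.

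H2A and H2B genes often lie head to head and share the DNA between their starts. Of 13 such pairs in the tables, 6 had both genes measured, 2 of them with the same H2B symbol, Hist1h2br, with 168 to 269 bases between their starts. The log2 ratio of the H2B gene was lower than that of its H2A partner in 5 of 6 for R/N, in 6 of 6 for P/N and in 3 of 6 for R/P. Hist1h2bg, at a log2 ratio of R/N of -3.86, lies 180 bases from Hist1h2ae, at -1.30, whose FPKM was 1.68, 1.49 and 0.626. Hist1h2bc, at -1.86, lies 240 bases from Hist1h2ac, at -1.75, so that this pair was close to equal. The exception for R/N was Hist1h2br beside Hist1h2ao. Values of Hist1h2ao and of Hist1h2ap, the other partner of Hist1h2br, are uncertain as given above. Counting intervals of R/N overlapped for Hist1h2bk (0.0593 to 0.537) and Hist1h2ah (0.0858 to 0.894). They also overlapped for Hist1h2bl (0.00143 to 0.382), which rests on 1.075 fragments in R, and Hist1h2ai (0.211 to 1.04).

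Position gave a related division. The Hist1 members lie in 2 blocks on chromosome 13. The 14 members at chr13:21715713-22042949 summed to 165, 158 and 123 FPKM, a ratio of R/N of 0.749 (0.694 to 0.807), and the 16 members at chr13:23531044-23761249 to 263, 117 and 32.7 FPKM, a ratio of 0.124 (0.112 to 0.138). The first block holds Hist1h2ap and the second Hist1h1c. Single genes differed less between blocks, as 10 of 14 and 13 of 16 were at least 2-fold lower in R than in N, with median log2 ratios of -1.94 and -2.23. The 6 Hist2 members on chromosome 3 summed to 49.2, 25.4 and 13.6 FPKM. Hist3h2a alone represented the Hist3 cluster on chromosome 11, and no Hist4 gene passed. Within Hist1, H2A summed to 137, 147 and 121 FPKM and the 20 other members to 290, 129 and 34.4 FPKM.

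Promoters of RefSeq (GRCm38.p6, windows of 300 bases around the start) were found for 41 of the 44 members, 38 of them within 100 bases of the deposited start. Those of 3 genes are shown because these were among the most abundant of their types and over 10-fold lower in R/N. The 120 bases before the start are given 5′ to 3′ for these H1, H2B and H4 genes, with matches on either strand to the 5 motifs counted in the next paragraph in capitals. They lie at chr13:23738687-23738806 (plus strand), chr13:23571280-23571399 (plus strand) and chr13:22041363-22041482 (minus strand).
Hist1h1c: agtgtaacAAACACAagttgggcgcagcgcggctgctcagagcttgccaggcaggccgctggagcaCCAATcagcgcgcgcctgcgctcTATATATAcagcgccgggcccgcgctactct
Hist1h2bg: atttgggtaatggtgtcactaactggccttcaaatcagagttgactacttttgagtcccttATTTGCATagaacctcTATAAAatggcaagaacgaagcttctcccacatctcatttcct
Hist1h4i: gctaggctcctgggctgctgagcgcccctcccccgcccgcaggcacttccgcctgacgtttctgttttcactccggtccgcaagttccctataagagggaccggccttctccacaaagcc

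AAACACA, known as the H1 box, was present in the whole window of 4 of 4 H1 promoters in no replication-dependent H2A, H2B, H3 or H4 promoter and in 1 of 6 variant promoters, that of H3f3a, against 7.18% of all 32851 promoters. ATTTGCAT, the octamer known from H2B genes, was present in 4 of 6 H2B and 5 of 14 H2A promoters, against 1.74%. An H2A and an H2B gene lying head to head share part of the window. CCAAT was present in 29 of 35 replication-dependent promoters and in 5 of 6 variant promoters, against 37.4%, but in only 3 of 9 H4 promoters. TATAAA was present in 19 of the 35, against 13.6%, and TATATA, which can overlap it, in 10 of the 35, against 5.67%. A match is a match of letters and was not tested as a binding site.

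The variant genes together exceeded the replication-dependent genes in FPKM in every library, and no variant was 2-fold apart. Replication-dependent mRNAs normally lack a poly(A) tail, so levels of the 2 classes depend on how RNA was selected, which was not tested. The transcripts of H2afx and H2afj had no intron. H3f3b and H3f3a encode the same replacement H3 protein. H3f3b stood at 372, 317 and 310 FPKM and H3f3a at 137, 145 and 132 FPKM, so that their sum of 509 (501 to 517), 462 (455 to 470) and 443 (436 to 450) exceeded the clustered H3 genes in each library. The H3f3b transcripts differed in direction. The annotated form stood at 273, 220 and 197 FPKM, while an assembled form of 2507 bases stood at 31.1, 37.0 and 68.0 FPKM, 2.18 times as high in R as in N (2.05 to 2.33).

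The 5 H2A variants summed to 359 (352 to 366), 376 (369 to 383) and 348 (342 to 355) FPKM. H2afz, the leading gene of the H2A.Z variant found at gene starts, stood at 199, 210 and 194 FPKM. Its relative H2afv stood at 56.8, 63.9 and 45.4 FPKM, the lowest ratio of R/P among the variants at 0.711 (0.663 to 0.762). H2afx stood at 39.5, 43.7 and 39.4 FPKM, equal in N and R within counting error. H2afy, which encodes macroH2A with its large extra domain, stood at 47.0, 43.2 and 55.5 FPKM and was the only variant that was highest in R, 1.18 times N (1.12 to 1.25). H2afj stood at 16.8, 14.9 and 14.4 FPKM. Variants were 64.0% of all measured H2A FPKM in N, 67.0% in P and 71.0% in R, shares that also depend on RNA selection. Cenpa, the centromeric H3, was not selected by the name patterns and stood at 12.4, 12.2 and 8.54 FPKM.

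Most listed genes that accompany histone synthesis were not in the order of the clustered histones. The same holds for most genes, as 13.0% of all genes were ordered N above P above R. Of 27 measured S phase genes, which serve DNA replication and nucleotide supply, 1 had its lowest FPKM in R, against 32.4% of all genes. None was at least 2-fold apart, where 3.27% of all genes were higher and 2.15% lower in R/N. The S phase sum was 357 (352 to 363), 407 (401 to 413) and 468 (462 to 474) FPKM in N, P and R, in the reverse order. The median log2 ratio of R/N of the S phase genes was 0.47. Pcna, the replication clamp, stood at 61.9, 69.7 and 83.5 FPKM, Mcm7 at 27.5, 28.6 and 38.1 FPKM, and Mcm6 at 25.0, 28.8 and 36.8 FPKM. Both Mcm genes encode parts of the replicative helicase. All 3 were highest in R. How many cells were in S phase was not measured.

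Of 15 measured genes for the transcription and 3′ processing of histone mRNA, none was 2-fold lower in any comparison. In R/N 1 was 2-fold higher, against 3.27% of all genes. That gene, Srrt, acts with the cap-binding complex and stood at 11.0, 15.4 and 22.4 FPKM. Npat, the coactivator of histone gene transcription, was the 1 gene of this list ordered N above P above R, at 5.98, 4.79 and 4.23 FPKM, a ratio of R/N of 0.707 (0.628 to 0.796). Slbp stood at 15.5, 16.3 and 18.0 FPKM, and Sympk and Upf1, a scaffold of the cleavage complex and a helicase of RNA decay, at 50.4, 50.8 and 48.2 FPKM and at 33.8, 34.3 and 32.6 FPKM. None of these 3 was 2-fold apart. The 25 measured histone chaperones and exchange factors summed to 513, 537 and 570 FPKM, and none was 2-fold apart. Among them 1, Vps72, was ordered N above P above R, at 34.7, 31.8 and 28.7 FPKM. Nap1l1 stood at 56.0, 62.6 and 61.3 FPKM, Rbbp7 at 47.9, 49.7 and 52.1 FPKM, and Ssrp1 at 40.8, 44 and 48.1 FPKM.

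**Figure D4:**
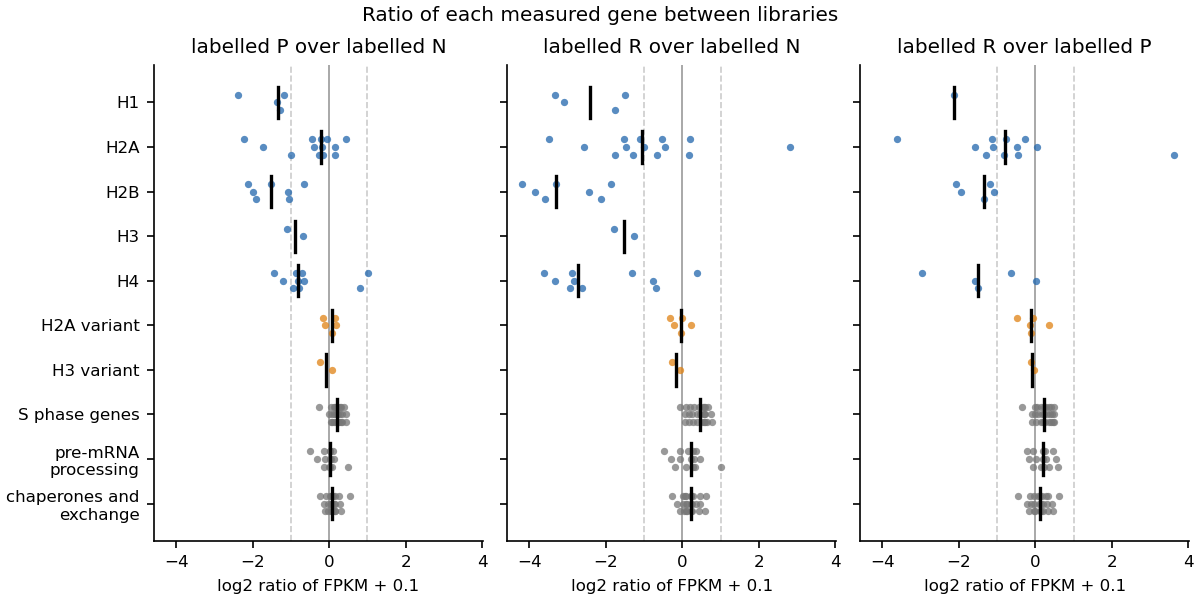
The log2 ratio of FPKM + 0.1 of each gene that reached an FPKM of 1 in one of the compared libraries, for P/N, R/N and R/P, with a black bar at the median of each row, dashed lines at 2-fold, replication-dependent types in blue, variants in orange and 3 other gene lists in grey. For R/N the medians are -2.42 for H1, -3.31 for H2B, -2.72 for H4 and -1.05 for H2A, against 0.47 for the S phase genes. The H2B median is the value of Hist1h2bl, which rests on 1.075 fragments in R. In R, 1 H1, 2 H2B and 2 H4 genes reached an FPKM of 1, against 9 H2A and 27 S phase genes. The threshold thus favoured low R/N ratios for H1, H2B and H4, and their distance to the other rows is partly set by it.

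Since replication-dependent histone mRNAs normally lack a poly(A) tail, the share of such RNA that a library holds depends on how RNA was selected, which the sources used here do not state beyond total RNA and standard Illumina protocols. Of the 8 listed RNAs that lack a tail and are not histones, such as Terc, none reached an FPKM of 1 in any library, and they summed to 1.89, 1.59 and 0.855 FPKM with overlapping intervals. Malat1, a nuclear RNA whose end is normally a triple helix and not a poly(A) tail, stood at 560, 651 and 265 FPKM. Neat1, a nuclear RNA whose long form ends likewise, stood at 372, 296 and 153 FPKM. Both were at least 2-fold lower in R than in N, as was the tailed mRNA of Gapdh, at 39.0, 70.6 and 12.6 FPKM. These were the 3 of 9 measured genes of their list that were so. Hprt, another listed tailed mRNA, stood at 0, 0 and 0.0025 FPKM. Whether reads of Gapdh or Hprt were missed was not tested. Of other tailed mRNAs, Eef1a1 stood at 5208, 4783 and 4100 FPKM, Ppia at 574, 613 and 756 FPKM and Actb at 595, 540 and 701 FPKM. Whether a difference in RNA selection or degradation moved with the histone values was not tested.

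Markers of other cells moved in another order. The sum of all leukocyte markers was lowest in P, and so was that of the myeloid markers at 71.8, 19.6 and 62.0 FPKM. The pan-leukocyte sum was lowest in N at 47.4, 49.0 and 54.4 FPKM, but Itgb2 and Lcp1 (12.4, 12.1 and 12.3 FPKM) were its largest parts. Of 5 pan-leukocyte markers at an FPKM of 1 or more in N or P, 4 were lower in P, with a median log2 ratio of P/N of -2.14. Single markers differed in order, with Lyz2 at 28.9, 0.313 and 6.51 FPKM, Mpeg1 at 0.697, 0.227 and 24.5 FPKM and Itgb2 at 26.3, 35.9 and 34.1 FPKM. The markers at least 2-fold apart in some comparison were Laptm5, Coro1a, Cd52, Tyrobp, Gzmb, Lyz2, Mpeg1, S100a8, S100a9, Mpo, Elane and Ngp. Cd8b1, Ncr1, Nkg7 and Klrb1c were at 0 in all 3 libraries. Of the epithelial markers Krt18 stood at 779, 653 and 528 FPKM, Krt8 at 651, 554 and 467 FPKM and Cldn4 at 349, 368 and 260 FPKM, and Krt14 alone was 2-fold apart, at 32.3, 31.3 and 14 FPKM. The part of other cells in the histone values was not tested.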

How the data were processed

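RNA of CSCsp was sequenced in 3 libraries, 1 per condition, from equal RNA of independent experiments that were multiplexed. Per the labels' processing notes the authors aligned reads with HISAT2 (2.2.0) and quantified transcripts with StringTie (2.1.3; 2.1.5 per the file headers). The notes name mm9, but 78 of 79 histone symbols overlap their GRCm38 gene, so coordinates are given as GRCm38. The deposited tables hold coverage, FPKM and TPM per transcript, as other text attributes of each line. How RNA was selected, and whether strand was kept, is not stated in the sources.

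FPKM was summed per symbol over named transcripts and over assembled transcripts of loci with 1 symbol. Fragments were coverage times length over 300 bases, the aligned bases of a read pair seen most often in the tables, from which exact Poisson intervals of levels and exact Clopper-Pearson intervals of ratios (95%) followed, for counting error only. Ratios used a pseudocount of 0.1 FPKM, and a gene counted as apart at 2-fold with an FPKM of 1 or more in either library. With 1 library per condition no test was made. Near-identical histone copies share reads, so values of single copies are uncertain, and 6 replication-dependent members share a locus or overlap with another symbol.

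Members and lists were chosen with earlier results of these data known. The genes named were every measured variant, the 4 most abundant members of each replication-dependent type, the 4 highest and lowest ratios per comparison among members at an FPKM of 5 or more, those nearest the threshold and, of every other list, the 3 most abundant and any 2-fold apart. Hist1h2ac, Hist1h2ae, Hist1h2ai, Hist1h2bb, Hist1h2bk, Hist1h2bl, Hist2h2aa2, Hist2h4, Npat, Vps72, Hprt and the genes under assembled transcripts were named after their values were seen. So were the groupings without Hist1h1c and without H2A. Stem-loops were searched in GENCODE M21 transcripts and motifs in RefSeq promoters. Calculations used Python 3.11.15, NumPy 2.4.6, pandas 2.3.3 and SciPy 1.17.1, and the ratio code was tested on simulated data.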

Additional observations from a re-analysis of the deposited data

Results flagged for a closer look

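Transcripts assembled without a gene symbol lie over H2A genes of the first Hist1 block and entered no sum above. Each has 2 exons on the plus strand, whereas the H2A gene copies under these exons lie on the minus strand. One, spanning chr13:21786897-21833520 with exons over Hist1h2an and Hist1h2ap, stood at 10.1, 17.0 and 11.4 FPKM in libraries N, P and R. The other 2 span chr13:22035165-22042904 with exons over Hist1h2ah and Hist1h2ag, and stood at 22.8, 22.1 and 18.0 FPKM and at 21.1, 24.0 and 20.0 FPKM. All 3 levels exceed what 3 fragments give, and none was 2-fold apart. With them H2A summed to 256, 248 and 191 FPKM, but whether their reads came from H2A mRNA was not tested.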

How the results depend on the processing

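With 1 table per condition the differences hold for these libraries, and the spread between cultures is unknown. Many members rest on few fragments, 10 of them on under 3 in a library. Under every alternative run the replication-dependent sum and median were lower in R than in N and in P (52 of 52 values). All alternatives reuse the same 3 libraries. Exchanging N and P only swaps the R/N and R/P values, so that this alternative could not come out otherwise. With labels N and P exchanged, P/N turned: the summed log2 ratio became 0.65 for replication-dependent genes and 0.051 for variants, 15 members were higher and 1 lower, and single ratios became 1.36 (Hist1h1b), 1.18 (Hist1h1c), 2.39 (Hist1h1d), 1.29 (Hist1h1e), 1.51 (Hist1h2be), 1.91 (Hist1h2bg), 1.07 (Hist1h2br), 1.44 (Hist1h4n) and 1.10 (Hist2h3c2). The exchange gave R/N sums of -0.83 and -0.083 with 14 members lower, and R/P sums of -1.47 and -0.13 with 28 lower.

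For the replication-dependent sum, log2 ratios of P/N, R/N and R/P were -0.65, -1.47 and -0.83. Using members alone in their locus gave -0.99, -2.50 and -1.51, and using only the transcript with the highest mean gave -1.82 for R/N and -1.11 for R/P. Chosen after seeing the data, leaving out Hist1h1c gave -0.40, -0.95 and -0.55, and leaving out H2A gave -1.15, -3.01 and -1.86. Also chosen so, adding the assembled transcripts over H2A genes, which run on the opposite strand, gave -0.53, -1.27 and -0.74.

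For the variant sum, -0.05, -0.13 and -0.08 became -0.084, -0.21 and -0.13 after rescaling by the median ratio and -0.019, -0.28 and -0.26 with histone genes of other names added, which left the replication-dependent results as they were. TPM gave -0.0053 for P/N and -0.087 for R/N. For R/N and R/P, only RefSeq transcripts gave -0.18 and -0.12, and only the highest transcript gave -0.20 and -0.15.

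Counts of members at least 2-fold lower in P/N, R/N and R/P were 15, 28 and 14, and 1 was higher in each. Without a filter 25, 43 and 27 were lower and 2, 3 and 4 higher, since more genes entered. At an FPKM of 5 or more 3, 8 and 6 were lower and 0, 0 and 0 higher. A pseudocount of 1 gave 8 lower in P/N, 6 lower in R/P and 0 higher in P/N. TPM gave 2 higher and 21 lower in R/P, and rescaling 0 higher in P/N. Members alone in their locus, and symbols of 1 locus summed (an alternative chosen after seeing the data), gave 0 higher in R/N and R/P. No paired analysis was possible because the labels give no replicates.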

Other observations

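A transcript of 222 bases without a symbol, at chr13:21721447-21721668, lies over Hist1h2aj of GENCODE, a gene that the deposited symbols do not name. It stood at 16.6, 17.4 and 15.2 FPKM in libraries N, P and R (65.9, 69.0 and 64.9 fragments). Another, of 4219 bases with 1 exon at chr13:21773611-21777829, lies between the histone genes of the first block and stood at 1.25, 0.513 and 0.169 FPKM (94.2, 38.7 and 13.6 fragments), in the order of most replication-dependent members.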
